A study of Danio rerio with 14 samples.

Results

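Developmental change was followed in zebrafish (Danio rerio) embryos that carry a knockout of mttp, from 24 to 48 hours post fertilization (hpf). The comparison used the 7 mutant libraries of a series of 14, chosen by their labels, 4 from mutants at 24 hpf and 3 from mutants at 48 hpf. All 36109 genes of the count table were taken, of which 24424 had enough reads to be tested. The other 7 libraries, labelled only as siblings, 4 at 24 hpf and 3 at 48 hpf, are used below to show where the mutant change differs from theirs. Per the labels, the knockout was made with CRISPR/Cas9, the siblings had no treatment, and every library came from whole embryos. TRIzol was used to extract the RNA, of which 1 µg was put into each library with the NEBNext Ultra RNA kit. That kit does not mark the strand, so reads of a gene and of an overlapping antisense gene cannot be told apart. The sources used here do not state the allele, the number of embryos in a library, the genotype of the siblings beyond their label or the source of the replicates. The p-values therefore measure the spread between these samples, which may be technical. The batch label of a library equals its stage, so a change between stages and a change between batches cannot be told apart.

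Microsomal triglyceride transfer protein, the product of mttp, loads lipid onto apolipoprotein B in the endoplasmic reticulum, the step that starts the assembly of a lipoprotein particle. In the zebrafish embryo the yolk syncytial layer, a sheet of shared cytoplasm around the yolk, packs yolk lipid into such particles and secretes them to the tissues. Over the interval compared here, a wild-type embryo stops adding somites and darkens with pigment, while lens fibres, muscle, neurons, cartilage and fins mature. Enzymes of the hatching gland digest the egg envelope at hatching.

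The mutant libraries held 29422983 to 37309883 counts at 24 hpf and 33761995 to 35676401 at 48 hpf. Genes with at least 10 counts numbered 22003 to 22672 at 24 hpf and 22999 to 23059 at 48 hpf. The 10 most counted genes took 7.263% to 7.502% of the counts at 24 hpf and 8.69% to 9.40% at 48 hpf. Transcripts of the mitochondrial genome held 1.72% to 1.97% of the counts at 24 hpf and 1.303% to 1.598% at 48 hpf, and the part of this shift in the results below was not tested. The first principal component of the 7 libraries held 67.9% of the variance. Replicates spread with a biological coefficient of variation of 0.190 at 24 hpf and 0.184 at 48 hpf.

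The targeted gene was checked before any other. Levels are given as CPM, the counts of a gene set against the total of its library, scaled with the size factors of the fit, and a stage change is the log2 of the level at 48 hpf over that at 24 hpf, with its standard error (SE). In mutants, mttp stood at 9.05, 7.90, 10.5 and 11.3 CPM at 24 hpf and at 11.4, 7.53 and 6.23 CPM at 48 hpf. The groups overlap, and the log2 fold change of -0.21 ± 0.22 (SE) did not pass the test, with an edgeR adjusted p of 0.482. In siblings the log2 fold change of mttp was -1.27, with an edgeR adjusted p of 7.35e-05. The difference between these changes, 1.07 ± 0.30, missed the threshold with an edgeR adjusted p of 0.0632, and it passed under 6 of 22 alternative settings, among them the replicate block, with an adjusted p of 0.0340, and the fits without sibling or mutant 48 hpf replicate 3, with 0.0115 and 0.0403. Sibling libraries held 67.6, 67.3, 79.6 and 70.26 CPM of mttp at 24 hpf and 30.3, 19.3 and 38.5 CPM at 48 hpf. Every mutant library was thus below every sibling library at both stages, in the direction of the genotype labels.

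A gene was called where the adjusted p of edgeR's quasi-likelihood test was under 0.05. Between 24 and 48 hpf, 10552 genes were called in mutants, which is 43.2% of those tested. Of these, 5758 (23.6%) rose and 4794 (19.6%) fell. Large changes were mostly rises. At least 2-fold, 3710 genes (15.2%) rose and 1268 (5.19%) fell. At least 8-fold, 763 (3.12%) rose and 179 (0.733%) fell. Every 48 hpf library lay above every 24 hpf library in 6819 genes (27.9%) and below in 6135 (25.1%), so the stages did not overlap in 53.0% of the genes tested. The median log2 fold change over all genes tested was -0.002. Since whole embryos were sequenced, fewer cells of a type and less RNA per cell cannot be told apart in any result below.

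Marker genes of tissues and pathways were sorted into 50 lists. Their counts are to be read against the shares called among all genes, 23.6% for rises and 19.6% for falls. Members low at both stages in mutants and siblings alike were removed by the filter on low counts, which was run on all 14 libraries. A count therefore describes the tested members and not the whole list. All 45 tested genes of differentiated neurons rose, and all 46 tested genes of DNA replication and mitosis fell. Rises were also frequent in lens, fast muscle, cartilage, collagen and fin fold, glycolysis and melanophore genes. Falls were frequent in genes of ribosome biogenesis, ribosomal proteins, somite segmentation and endoplasmic reticulum (ER) stress.

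**Figure D1:**
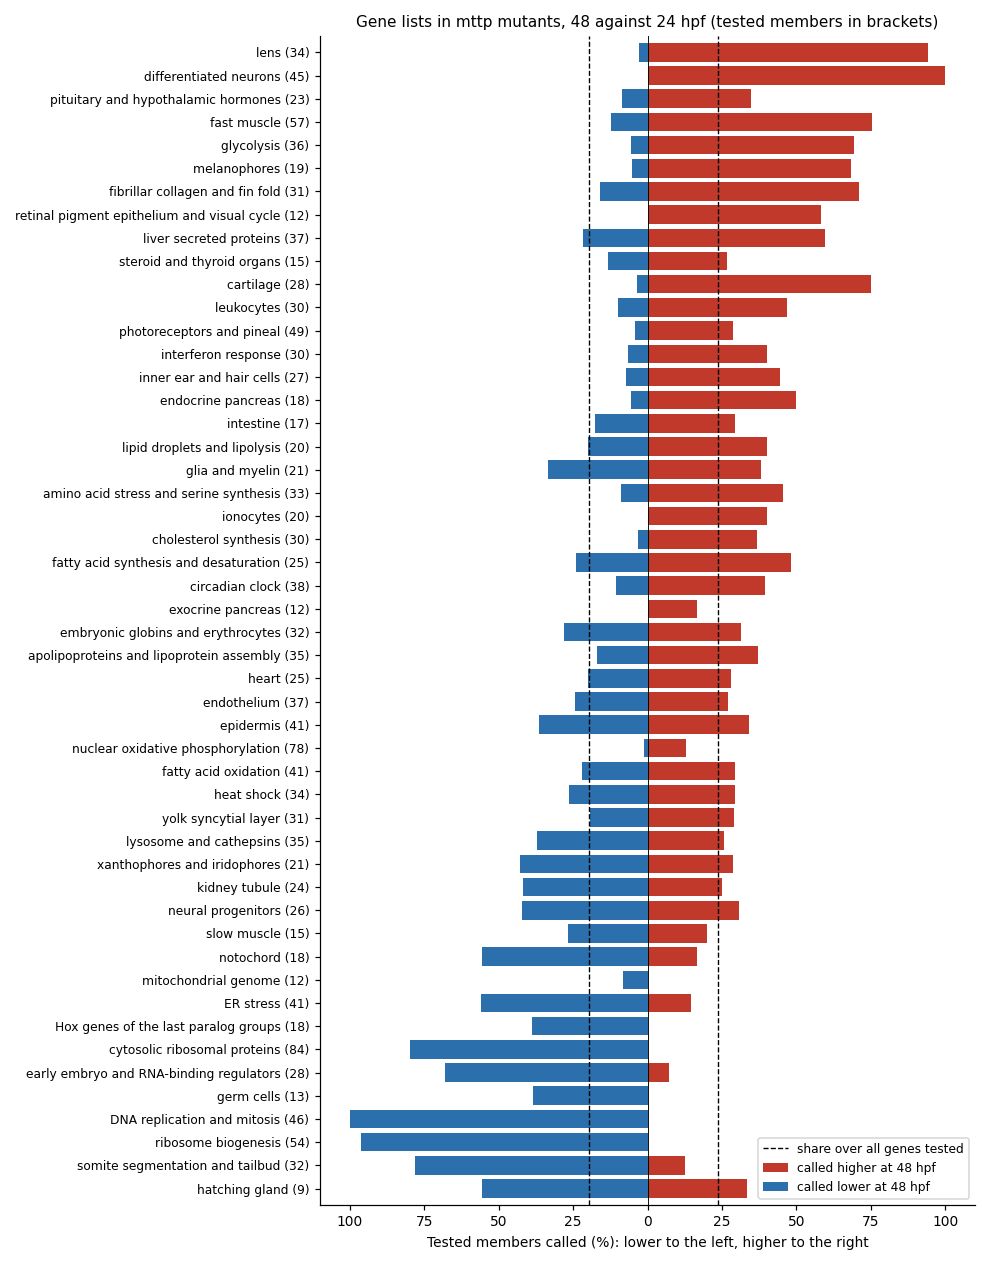
Share of the tested members of each list that was called lower (bars to the left) or higher (bars to the right) at 48 hpf in mutants, in percent. Dashed lines mark the shares over all genes tested, 19.6% lower and 23.6% higher, and the lists are ordered by their median log2 fold change. The lens, neuron, proliferation and ribosome lists lie far beyond these lines, while heart, endothelium and fatty acid oxidation lie close to them.

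The lens, built of fibre cells packed with crystallins, gave most of the greatest rises among well-expressed genes. Of the 12 greatest among genes with a gene name, a mean log2 CPM of at least 1 and stages that do not overlap, 9 were crystallin genes, while some genes of lower level had changes of similar size. The gamma M crystallin gene crygm2d9 had 2 counts in all 24 hpf libraries together and 6239 counts at 48 hpf, where its level was 59.6, 65.2 and 51.6 CPM. The ratio of these levels is 3960-fold, with a 95% counting interval from 1096 to 32700. Its relative crygm2d1 went from 0.160, 0, 0.104 and 0.065 CPM to 143, 122 and 115 CPM. Both genes were close to absent in each 24 hpf library and high in each 48 hpf library. For lim2.5, of the family of lens fibre membrane proteins, no count was found at 24 hpf against 11.8, 8.75 and 8.71 CPM at 48 hpf, at least 437-fold higher when 3 counts over the 24 hpf group are taken as the floor. The crystallin crygmxl1 likewise had no count at 24 hpf and rose at least 177-fold. The other crystallins among these 12 genes were crygm2d2, crygm2d18, crygm2d15, crygm2d16, crygm2d6 and crygm2d4, with log2 fold changes from 8.83 to 9.98. Copies of the crygm2d family are nearly identical, so reads may have been counted for either copy, and the value of a single copy is uncertain.

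The lens list, which holds 2 of these 12 genes, rose nearly throughout. Of 45 listed genes in the table, 34 were tested, 32 rose and 1 fell, with a median log2 fold change of 4.59. The single fall was lost in 4 of the alternative settings that leave out a library (mutant 24 hpf replicate 1 or any of the 3 mutant 48 hpf libraries). The small heat shock protein gene cryaa, which encodes alpha A crystallin, rose from 0.449, 0.233, 0.311 and 0.262 CPM to 26.6, 20.8 and 22.9 CPM. The beta crystallin gene cryba1a rose less, with a log2 fold change of 4.55 ± 0.84. The sum over tested lens genes was 148 to 223 CPM at 24 hpf and 4261 to 4711 CPM at 48 hpf.

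Among photoreceptor genes the share that rose was near that over all genes tested, 23.6%. Of 62 listed photoreceptor and pineal genes, 49 were tested, 14 rose and 2 fell, with 1 fall in 8 of the alternative settings, among them those without mutant 24 hpf replicate 2 or 4, mutant 48 hpf replicate 3, sibling 24 hpf replicate 1, 2 or 4 or sibling 48 hpf replicate 2. The phosphodiesterase subunit gene pde6gb rose from 1.25, 0.875, 1.399 and 1.504 CPM to 16.3, 25.4 and 10.5 CPM, and nr2e3, a nuclear receptor of rods, from 0.706, 0.758, 0.311 and 0.850 CPM to 9.11, 10.4 and 6.99 CPM. In both genes the 2 stages do not overlap, which the rule that named them required. Rhodopsin, rho, reached 0.290, 0.111 and 0.620 CPM at 48 hpf, against 0.128, 0, 0.026 and 0.065 CPM, and was not called, but it was called higher without sibling 48 hpf replicate 3, with an edgeR adjusted p of 0.0222. For the ultraviolet opsin opn1sw1, 6 counts at 24 hpf and 13 at 48 hpf were too few for a test. In the list of retinal pigment epithelium and visual cycle genes, 7 of 12 rose and none fell, but 4 rose without mutant 24 hpf replicate 3. The rises included dct, a melanin synthesis gene that is also in the melanophore list. The isomerase gene rpe65a, which regenerates the visual chromophore, rose with a log2 fold change of 1.31 ± 0.28.

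**Figure D2:**
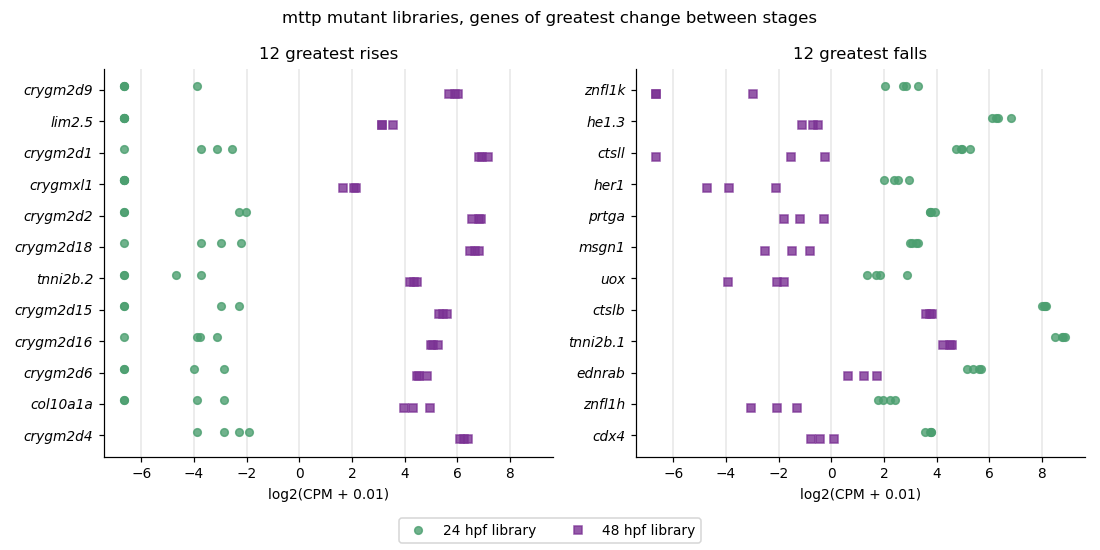
Level of the 12 genes with the greatest rise (left) and the 12 with the greatest fall (right) in each mutant library, among called genes with a gene name, a mean log2 CPM of at least 1 and stages that do not overlap, as log2(CPM + 0.01), with circles for the 4 libraries at 24 hpf and squares for the 3 at 48 hpf. Points at the left edge of a panel are libraries without counts, and by this choice circles and squares do not overlap in any of the 24 genes.

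Genes of fast muscle, the bulk of the trunk, rose in most cases. Of 57 tested, 43 rose and 7 fell, with a median log2 fold change of 1.48. The fast myosin light chain gene mylpfa went from 1225, 1191, 1339 and 1372 CPM to 4113, 3760 and 3391 CPM, and the fast myosin heavy chain gene myhz2 from 684, 619, 1095 and 666 CPM to 3047, 3548 and 3880 CPM. In both, each library at 48 hpf exceeded each at 24 hpf by a wide margin. A pair of genes for fast troponin I, the subunit that holds contraction in check, moved in opposite directions. The level of tnni2b.1 fell from 359, 429, 467 and 447 CPM to 18.8, 22.9 and 23.7 CPM, a log2 fold change of -4.29 ± 0.19. In the same libraries tnni2b.2 rose from 0, 0.029, 0 and 0.065 CPM, 3 counts in all, to 20.5, 22.3 and 18.3 CPM, a ratio of 915-fold with a 95% counting interval from 313 to 4441. Shared reads between these neighbours in sequence cannot be told from the table. The muscle AMP deaminase gene ampd1 rose with a log2 fold change of 7.07 ± 0.31.

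Slow muscle did not follow fast muscle. Of 15 tested genes, 3 rose (20%) and 4 fell (26.7%), against 23.6% and 19.6% over all genes. Without mutant 48 hpf replicate 2, 2 fell. The slow myosin gene smyhc1 fell from 1777, 1756, 1765 and 1708 CPM to 1384, 1113 and 1287 CPM, a call lost without mutant 48 hpf replicate 2. The call on prdm1a, the regulator that commits cells to slow muscle, was not lost in any setting, with a log2 fold change of -1.37 ± 0.11. In the same list mybpc1 rose, with a log2 fold change of 1.24, and that call was not lost in any setting either. Heart genes were mixed, with 7 of 25 up and 5 down, of which 2 fell without mutant 48 hpf replicate 2. The natriuretic peptide gene nppa rose from 0.064, 0.642, 0.363 and 0.589 CPM to 30.8, 14.04 and 23.4 CPM, and pln, for phospholamban, rose with a log2 fold change of 2.14 ± 0.29. The cardiac light chain gene myl7 changed by -0.39 ± 0.16 on the log2 scale, which did not pass the test. It was called lower in some settings, DESeq2 and the mutant libraries alone included. The heart list gene myh7 fell, with a log2 fold change of -0.61, a call lost without mutant 48 hpf replicate 2.

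Skeletal and fin genes rose together in number. In the cartilage list, 21 of 28 rose and 1 fell, with a median log2 fold change of 0.75, and 2 fell without mutant 24 hpf replicate 1, mutant 48 hpf replicate 2, sibling 24 hpf replicate 2 or sibling 48 hpf replicate 3. Type X collagen, col10a1a, a product of hypertrophic cartilage and of bone-forming cells, went from 0.128, 0.058, 0 and 0 CPM, 6 counts in all, to 31.5, 19.8 and 15.7 CPM. The cartilage matrix gene matn3a rose from 0.032, 0.146, 0.699 and 0.196 CPM to 76.0, 73.1 and 73.8 CPM. Both were near absent at 24 hpf, and the rule that named them required stages without overlap. The regulator sox9a rose by 0.78 ± 0.08 on the log2 scale, and its target col2a1a by 0.54 ± 0.19, a call lost without mutant 24 hpf replicate 1 or 4 or mutant 48 hpf replicate 2 or 3.

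Among 31 genes of fibrillar collagen and the fin fold, 22 rose and 5 fell, with a median log2 fold change of 1.34. The main type I collagen gene col1a1a rose from 1488, 1729, 1756 and 1848 CPM to 4358, 4758 and 5275 CPM. Actinodins form the first rays of the fin fold, and and2 rose from 7.80, 2.86, 8.18 and 8.05 CPM to 285, 365 and 318 CPM. Its relative and3 rose with a log2 fold change of 6.58 ± 0.37. In the epidermis list, of 41 tested, 14 rose and 15 fell. The hemidesmosome collagen genes col17a1a and col17a1b, which anchor skin to its basement membrane, rose with log2 fold changes of 5.76 ± 0.26 and 4.73 ± 0.31. The basal keratin gene krt5 fell from 4036, 3703, 3103 and 3557 CPM to 1895, 2169 and 2251 CPM. The outer keratin gene krt4 changed by 0.18 ± 0.11 on the log2 scale and was not called, but it was called higher in the mutant libraries alone.

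In the nervous system, genes of differentiated neurons rose while those of dividing progenitors split. All 45 tested neuron genes were called higher, 44 of them at least 2-fold, with a median log2 fold change of 1.91. The RNA-binding protein gene elavl3, an early neuronal marker, rose from 393, 363, 374 and 394 CPM to 820, 945 and 891 CPM. The synaptic release gene snap25a rose from 32.8, 40.4, 37.9 and 35.1 CPM to 130, 127 and 96.0 CPM. In each of these genes the lowest 48 hpf library was above the highest at 24 hpf. The neurofilament gene nefla rose by 3.81 ± 0.62 on the log2 scale.

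Of 26 neural progenitor genes, 8 rose and 11 fell. The progenitor factors sox2 and sox3 fell, with log2 fold changes of -0.49 ± 0.08 and -1.09 ± 0.08. The radial glia lipid-binding gene fabp7a rose from 20.6, 41.8, 41.6 and 54.3 CPM to 366, 373 and 323 CPM, and insm1a, a factor of newly formed neurons and endocrine cells, from 40.9, 44.998, 42.5 and 42.0 CPM to 200, 269 and 215 CPM. Glial genes were also divided, with 8 of 21 up and 7 down. The astroglial glutamate transporter gene slc1a3b rose from 3.27, 3.73, 3.47 and 6.28 CPM to 105, 102 and 98.5 CPM. The hindbrain segment gene egr2b fell from 7.44, 6.47, 6.42 and 5.89 CPM to 0.522, 0.360 and 0.451 CPM. The myelin gene mbpa had no count at 24 hpf and 4 counts at 48 hpf and was not tested.

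In the inner ear list, 12 of 27 genes rose and 2 fell, 1 of them without mutant 48 hpf replicate 2. The otolith matrix gene oc90 fell from 86.4, 91.4, 77.6 and 79.1 CPM to 10.6, 9.03 and 9.13 CPM, while otofb, an otoferlin gene needed for release at hair cell synapses, rose with a log2 fold change of 2.08 ± 0.19. The tectorial and otolithic membrane gene otog rose by 0.59 ± 0.23, a call lost in 5 settings, among them library size scaling and the fits without sibling 24 hpf replicate 1, mutant 24 hpf replicate 1 or 3, or mutant 48 hpf replicate 1.

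Pigment cells differed by type. Among melanophore genes, the source of the black pigment, 13 of 19 rose and 1 fell, or 2 without sibling 48 hpf replicate 3, with a median log2 fold change of 1.34. The melanosome gene pmela rose from 70.002, 71.9, 81.5 and 74.2 CPM to 197, 191 and 199 CPM, and the melanin synthesis genes dct and tyrp1b rose with log2 fold changes of 1.52 ± 0.16 and 2.16 ± 0.22. In the list of xanthophores and iridophores, the yellow and the reflecting cells, 6 of 21 rose and 9 fell. The purine metabolism gene pnp4a of iridophores and the pteridine enzyme gene xdh rose, by 1.06 ± 0.16 and 1.77 ± 0.26 on the log2 scale. These rises do not stand for the list, in which falls were more frequent and the median log2 fold change was -0.075. The xanthophore gene gch2 changed by 0.16 ± 0.15 with overlapping groups and was not called.

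Blood and vessel genes were mixed. In the list of embryonic globins and erythrocytes 10 of 32 rose and 9 fell. The embryonic beta globin gene hbbe1.1 rose from 76.0, 210, 124 and 105 CPM to 347, 381 and 447 CPM. The embryonic alpha globin gene hbae3 rose from 160, 398, 405 and 401 CPM to 518, 952 and 885 CPM. The groups do not overlap in either gene, although the spread at 24 hpf was wide, and reads may be shared between globin copies. The early blood genes blf and drl fell, with log2 fold changes of -2.90 ± 0.31 and -2.89 ± 0.60. Of 30 leukocyte genes, 14 rose and 3 fell, among the rises the neutrophil peroxidase gene mpx, from 4.23, 6.71, 9.997 and 9.75 CPM to 42.1, 39.6 and 39.4 CPM. In endothelium 10 of 37 rose and 9 fell. The receptor gene kdrl and the junction gene cdh5 changed by 0.11 ± 0.10 and 0.08 ± 0.09 and were not called. The vessel gene plvapb rose by 1.78 ± 0.16, and the scavenger receptor gene stab2 fell by 1.28 ± 0.12 on the log2 scale.

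Genes of the endoderm and its organs included strong changes in both directions. In the liver list, 22 of 37 genes rose and 8 fell, with a median log2 fold change of 0.92. The antimicrobial peptide gene leap2 rose from 0, 1.34, 0 and 0.523 CPM to 61.3, 27.0 and 78.5 CPM. The transferrin gene tfa, an iron carrier also made by the yolk syncytial layer, fell from 959, 839, 899 and 901 CPM to 243, 215 and 201 CPM. The urate oxidase gene uox fell from 7.38, 3.59, 2.54 and 3.21 CPM to 0.232, 0.055 and 0.282 CPM. The fatty acid binding gene fabp10a, a liver marker, was at 0.785 to 1.38 CPM at 24 hpf and 0.416 to 0.705 CPM at 48 hpf and was not called.

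In the endocrine pancreas list, 9 of 18 rose and 1 fell, a fall lost without mutant 48 hpf replicate 1. Insulin, ins, rose from 1.70, 2.57, 1.399 and 1.70 CPM to 6.32, 5.51 and 4.74 CPM, and neurod1, a factor of endocrine cells and neurons, from 21.5, 19.0, 18.8 and 19.4 CPM to 68.1, 86.0 and 63.2 CPM. Of 22 exocrine pancreas genes 12 were tested and 2 rose, or 4 with limma-voom, among them ptf1a, the factor that specifies these cells, with 1.52 ± 0.32. The digestive enzyme gene prss1 changed by 1.41 ± 0.58 and was not called, but it was called higher in some settings, DESeq2 and limma-voom included. The gene ctrb1 had no count at 24 hpf and 4 at 48 hpf. In the intestine list 5 of 17 rose and 3 fell. The fatty acid binding gene fabp2 fell from 170, 211, 191 and 195 CPM to 46.7, 82.5 and 69.2 CPM, while the tight junction gene cldn15la and the regulator cdx1b rose by 3.58 ± 0.44 and 2.58 ± 0.53 on the log2 scale.

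Of 24 kidney tubule genes, 6 rose and 10 fell. The salt transporter genes slc12a1 and slc12a3 fell, with log2 fold changes of -1.83 ± 0.21 and -1.81 ± 0.20, and the phosphate transporter gene slc20a1a rose with 1.75 ± 0.21. Among ionocytes, the salt-handling cells of the skin, 8 of 20 genes rose and none was called lower, although 1 to 3 were called lower in 14 of the alternative settings. The sodium chloride transporter gene slc12a10.2 rose from 0, 0, 0.104 and 0.065 CPM, 6 counts in all, to 13.9, 13.96 and 12.5 CPM. The chloride channel gene clcn2c rose with a log2 fold change of 5.71 ± 0.64. Changes were smaller in the first genes of the list, foxi3b and atp6v1aa. The level of atp6v1aa rose by 0.49 on the log2 scale. For foxi3b the log2 fold change of -0.43 was not called, but it was called lower in some settings, the mutant libraries alone included. Of 23 tested hormone genes of pituitary and hypothalamus, 8 rose and 2 fell, 1 of them in 6 settings, among which are the fits without mutant 24 hpf replicate 2 or 3 or mutant 48 hpf replicate 2 or 3. The neuropeptide gene adcyap1b rose from 8.73, 8.66, 10.6 and 8.70 CPM to 44.2, 42.5 and 37.7 CPM. Of 15 genes of steroid and thyroid organs, 4 rose and 2 fell, none of them without mutant 48 hpf replicate 2 or 3 and 1 without mutant 24 hpf replicate 2 or mutant 48 hpf replicate 1. The thyroglobulin gene tg rose by 2.01 ± 0.35 on the log2 scale. The falls were those of cyp11a1 and hsd3b2, with log2 fold changes of -2.55 and -0.77, and both calls were also lost with limma-voom. Counts of cyp11a1 were low, 54 at 24 hpf and 7 at 48 hpf.

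Hatching gland and segmentation genes were among the greatest falls under the same limits. In the hatching gland list, 5 of 9 fell and 3 rose. The hatching enzyme gene he1.3 went from 113, 77.3, 69.0 and 79.8 CPM to 0.696, 0.609 and 0.451 CPM, a log2 fold change of -7.17 ± 0.32. The level of he1.1 fell less, from 1048, 1120, 1163 and 1144 CPM to 424, 420 and 431 CPM. The hatching gland cathepsin gene ctslb fell from 258, 268, 284 and 278 CPM to 12.3, 14.3 and 13.3 CPM. In these 3 genes the highest 48 hpf library lay below the lowest at 24 hpf, which for he1.3 and ctslb the naming rule required. Hatching enzyme copies may share reads. The cathepsin-like gene ctsll changed by -6.35 ± 0.53.

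Of 32 tested genes of somite segmentation and tailbud, 25 fell and 4 rose, with a median log2 fold change of -1.24. The segmentation clock gene her1 fell from 7.76, 5.72, 4.04 and 5.27 CPM to 0.058, 0.222 and 0.028 CPM. The presomitic mesoderm gene msgn1 fell from 9.88, 9.19, 8.47 and 7.98 CPM to 0.348, 0.166 and 0.564 CPM. The tailbud factor gene cdx4 fell from 13.99, 13.9, 11.8 and 13.5 CPM to 0.580, 1.05 and 0.733 CPM. No library of 48 hpf reached the lowest of 24 hpf in these genes, which the rule that named them required. The mesoderm factors tbxta and tbx16 fell by 1.27 ± 0.16 and by 2.93 ± 0.45 on the log2 scale. Of 18 Hox genes of the last paralog groups, which pattern the tail end of the axis, 7 fell and none rose, with 4 falls without mutant 48 hpf replicate 1 or 3. The fall of hoxc13a, from 13.8, 11.49, 10.7 and 15.7 CPM to 6.93, 6.45 and 6.60 CPM, was called in each setting. The fall of hoxa13a, by 0.69 on the log2 scale, was lost in several settings, among them each fit without a mutant 48 hpf library. For hoxd13a the log2 fold change of -0.69 was not called, with an edgeR adjusted p of 0.0591, but it was called lower in some settings, DESeq2 included.

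Other great falls were those of the zinc finger genes znfl1k and znfl1h, with log2 fold changes of -7.39 ± 0.74 and -4.12 ± 0.46. The level of znfl1k was 7.19, 4.08, 9.84 and 6.61 CPM at 24 hpf and 0.116, 0 and 0 CPM at 48 hpf, with 4 counts in all at the later stage. The endothelin receptor gene ednrab, a marker of neural crest, fell from 48.4, 51.4, 35.7 and 42.3 CPM to 3.31, 1.55 and 2.37 CPM, and the cell surface gene prtga, or protogenin, from 13.8, 13.3, 13.5 and 15.5 CPM to 0.435, 0.277 and 0.818 CPM. In the notochord list 10 of 18 fell and 3 rose. The signal gene shha stayed between 32.1 and 37.1 CPM in the 7 libraries and was not called, and mia fell by 2.00 ± 0.22 on the log2 scale. Germ cell genes, 13 in number, had 5 falls and no rise. These were weak calls, with 3 falls without mutant 24 hpf replicate 1 or 3, 2 without mutant 48 hpf replicate 1 or 2, and 1 without mutant 48 hpf replicate 3. The germ plasm helicase gene ddx4 was at 3.72 to 5.05 CPM at 24 hpf and 1.86 to 3.36 CPM at 48 hpf.

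Genes of cell division and ribosome production fell across nearly whole lists. All 46 tested genes of DNA replication and mitosis fell, 17 of them at least 2-fold, with a median log2 fold change of -0.92. The replication clamp gene pcna fell from 691, 723, 737 and 686 CPM to 304, 347 and 388 CPM, and the origin licensing gene cdc6 from 102, 71.0, 107 and 85.5 CPM to 20.5, 20.9 and 26.0 CPM. The stages do not overlap in either gene, which for cdc6 the naming rule required. The proliferation marker mki67 fell less, by 0.51 ± 0.10 on the log2 scale.

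Of 54 genes of ribosome biogenesis, 52 fell and none rose, with a median log2 fold change of -0.96. The nucleolar methyltransferase gene fbl fell from 232, 253, 238 and 230 CPM to 111, 97.8 and 119 CPM, and nucleolin, ncl, from 1244, 1291, 1245 and 1219 CPM to 652, 551 and 720 CPM. Of 84 cytosolic ribosomal protein genes, 67 fell and none rose, but the falls were shallower, with a median of -0.42 and none of 2-fold. Without mutant 48 hpf replicate 2, 44 of them fell. The large subunit gene rpl29 fell from 268, 260, 278 and 268 CPM to 178, 163 and 163 CPM. For rpl3 and rps6 each 48 hpf library was below each 24 hpf library, yet neither passed the test in the fit of all 14 libraries, with edgeR adjusted p of 0.138 and 0.0813. In the fit of the mutant libraries alone both passed.

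Among 28 regulators of the early embryo and RNA-binding proteins, 19 fell and 2 rose, 1 of them under several settings, each fit without a mutant 24 hpf library and those without mutant 48 hpf replicate 1 or 2 included. The developmental timing gene lin28a fell from 140, 136, 158 and 141 CPM to 26.2, 27.4 and 33.4 CPM. The pluripotency factor gene pou5f3 fell from 2.95, 2.33, 2.33 and 1.83 CPM to 0.464, 0.609 and 0.451 CPM. The neural factor gene sox11a was among those that rose, by 0.69 ± 0.08 on the log2 scale.

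**Figure D3:**
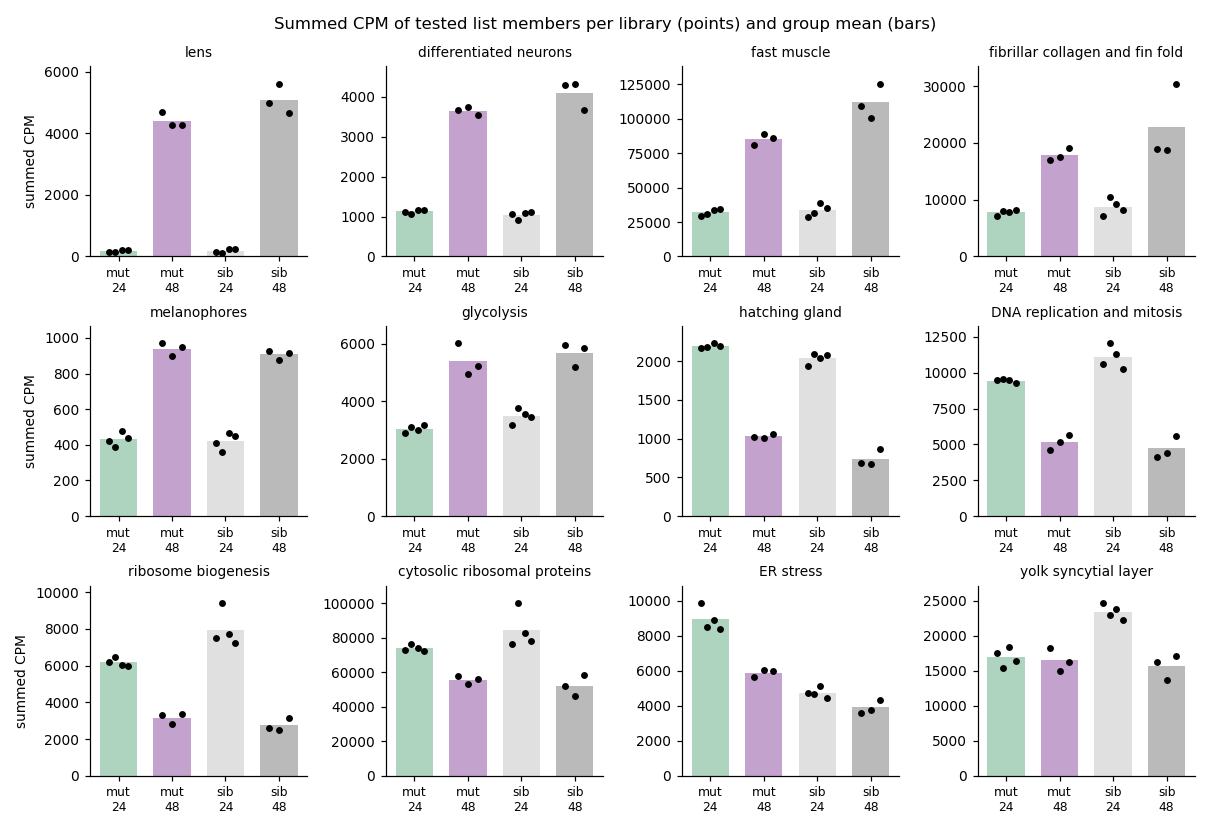
Summed CPM of the tested members of 12 lists in every library (points) and the mean of each group (bars), for mutants and siblings at 24 and 48 hpf. In mutants the sums of lens, neuron, fast muscle, collagen, melanophore and glycolysis genes are higher at 48 hpf in every library, those of hatching gland, replication, ribosome and ER stress genes are lower, and the yolk syncytial layer sums overlap at 15320 to 18340 and 14960 to 18220 CPM.

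The per-library sums plotted for 12 lists show the same directions without a test. For replication and mitosis the sum was 9298 to 9539 CPM at 24 hpf and 4630 to 5642 CPM at 48 hpf. For ribosome biogenesis it was 5955 to 6494 CPM and 2821 to 3377 CPM. The fast muscle sum went the other way, from 29200 to 34290 CPM at 24 hpf to between 80600 and 89260 CPM at 48 hpf.

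Energy metabolism changed most in glycolysis. Of 36 genes, 25 rose and 2 fell, with a median log2 fold change of 1.35, and 1 fell without mutant 48 hpf replicate 2 or 3. The lactate dehydrogenase gene ldha rose from 37.1, 38.3, 42.4 and 50.9 CPM to 196, 132 and 160 CPM. The muscle isoform genes pfkma and pkmb rose from 0.350 to 1.01 CPM to between 29.95 and 35.8 CPM, and from 6.63 to 12.7 CPM to between 239 and 251 CPM. These isoforms move beside the fast muscle list, and its part in the glycolysis result was not tested. Of 78 nuclear genes of oxidative phosphorylation 10 rose and 1 fell, 6 rose without mutant 24 hpf replicate 4 and 2 fell without sibling 48 hpf replicate 3, and the median log2 fold change was 0.03, or -0.003 with library size scaling. Of 12 protein genes of the mitochondrial genome 1 was called lower, mt-nd3, a call lost in 13 settings, and 11 were not called. Its level was 174 to 201 CPM at 24 hpf and 126 to 149 CPM at 48 hpf. In the fit of the mutant libraries alone 8 of these 12 were called lower.

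Genes that handle yolk lipid are the ones closest to the targeted gene, and their lists held both rises and falls. Rises were 29.0% of the yolk syncytial layer list and 37.1% of the lipoprotein list, against 23.6% over all genes. Falls were 19.4% and 17.1%, against 19.6%. In the yolk syncytial layer list, 9 of 31 rose and 6 fell. The apolipoprotein A-I gene apoa1b was at 1903 to 2176 CPM at 24 hpf and 1752 to 2616 CPM at 48 hpf, and the groups overlap. A further apolipoprotein A-I gene, apoa1a, is given outside the naming rule, for its high counts. It took 0.264% to 0.288% of the counts of a mutant library at 24 hpf and 0.365% to 0.488% at 48 hpf, without overlap. The retinol carrier gene rbp4 rose from 15.6, 16.8, 35.2 and 30.2 CPM to 102, 112 and 145 CPM. Among genes of apolipoproteins and lipoprotein assembly, 13 of 35 rose and 6 fell, with 3 falls without mutant 48 hpf replicate 1 and 10 in the mutant libraries alone. Of the genes for apolipoprotein B, apoba changed by -0.36 ± 0.15 with overlapping groups and was not called, with an edgeR adjusted p of 0.0614. It was called lower in some settings, DESeq2 and the mutant libraries alone included. Its relative apobb.1, also given for its high counts, took 0.612% to 0.8455% of the counts of a mutant library at 24 hpf. At 48 hpf its share was 0.540% to 0.731%, and the groups overlap. Apolipoprotein E, apoea, rose from 40.2, 65.8, 69.8 and 72.1 CPM to 393, 344 and 305 CPM, and apoda.1 with a log2 fold change of 4.08 ± 0.48.

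Of 30 genes of cholesterol synthesis and uptake, 11 rose and 1 fell, with no fall without mutant 48 hpf replicate 1 or 3 and 2 without sibling 48 hpf replicate 3. The rate-limiting enzyme gene hmgcra rose from 8.47, 6.18, 9.89 and 10.5 CPM to 28.1, 29.3 and 39.5 CPM. The low density lipoprotein receptor gene ldlra rose from 0.117 to 0.654 CPM to between 10.7 and 13.5 CPM. In fatty acid synthesis and desaturation, 12 of 25 rose and 6 fell, or 3 without mutant 48 hpf replicate 1 or 3. The desaturase genes scd and fads2 rose by 1.18 ± 0.30 and 2.08 ± 0.25 on the log2 scale, and fasn is listed at 0 in all mutant libraries. For fasn this does not show absence of expression, since the settings by which reads were assigned to genes are not given. For lipid droplets and lipolysis, 8 of 20 rose and 4 fell, with 5 rises without mutant 24 hpf replicate 1, 4 without mutant 24 hpf replicate 2 and 5 without mutant 48 hpf replicate 2. The droplet coat gene plin2 ranged from 68.5 to 122 CPM at 24 hpf and from 44.3 to 106 CPM at 48 hpf and was not called. Without mutant 48 hpf replicate 3 it was called lower, with an edgeR adjusted p of 0.0107. The esterification gene soat2 fell by 2.69 ± 0.52 and cidec, a droplet fusion gene, rose by 2.98 ± 0.49 on the log2 scale. In fatty acid oxidation 12 of 41 rose and 9 fell, or 5 without mutant 48 hpf replicate 1. The carnitine transfer gene cpt1ab, which admits fatty acids to mitochondria, rose from 42.3, 36.69, 52.0 and 45.6 CPM to 88.7, 78.8 and 81.6 CPM.

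Stress pathways divided. Of 41 genes of ER stress and protein folding in the ER, 23 fell and 6 rose, with a median log2 fold change of -0.39. The chaperone gene hspa5, or BiP, fell from 1673, 1273, 1458 and 1305 CPM to 922, 942 and 956 CPM. The chaperone gene hsp90b1 fell from 1355, 1066, 1152 and 992 CPM to 445, 544 and 600 CPM. The degradation genes derl3 and herpud1 fell from 131 to 190 CPM to between 34.2 and 45.2 CPM, and from 107 to 132 CPM to between 30.7 and 38.9 CPM. In these genes no library of 48 hpf reached the range of 24 hpf, which for derl3 and herpud1 the naming rule required. Among genes of amino acid stress and serine synthesis 15 of 33 rose and 3 fell, with fgf21, a secreted stress hormone, and the amino acid transporter gene slc7a5 up by 2.63 ± 0.31 and 1.70 ± 0.10. The stress factor gene atf4a and the asparagine synthetase gene asns changed by -0.14 ± 0.07 and -0.17 ± 0.13 and were not called.

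Of 34 heat shock genes 10 rose and 9 fell. The inducible gene hsp70l rose from 0.962, 0.700, 0.622 and 1.05 CPM to 5.05, 6.26 and 16.3 CPM, with replicate 3 of 48 hpf above the others, and reads may be shared among hsp70 copies. The small heat shock gene hspb1 fell from 154, 159, 140 and 148 CPM to 31.5, 28.3 and 27.3 CPM. Of 30 interferon response genes 12 rose and 2 fell, or 1 in 9 of the alternative settings, among them each fit without mutant 24 hpf replicate 2, 3 or 4, sibling 48 hpf replicate 2 or a mutant 48 hpf library. The signalling inhibitor gene socs3a rose from 1.48, 1.57, 0.725 and 1.18 CPM to 19.5, 11.1 and 14.3 CPM. The interferon-induced genes isg15 and stat1b were not called, with isg15 at 21.2 to 49.3 CPM and 25.2 to 40.6 CPM. In the lysosome list, 9 of 35 rose and 13 fell. The protease gene ctsd rose by 0.49 ± 0.12, and ctsba and ctsh fell by 0.61 ± 0.12 and by 2.24 ± 0.14 on the log2 scale. Of 38 clock genes 15 rose and 4 fell, with a median log2 fold change of 0.20. The greatest changes under the naming rule were those of nr1d2a and roraa, nuclear receptors of the clock, up by 2.76 ± 0.18 and 2.08 ± 0.19. The clock gene per2 rose by 0.47 on the log2 scale, and per1b changed by -0.17 and was not called. The time of day of collection is not given in the sources used here.

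The stage change of mutants was then set beside that of siblings, which shares no library with it but shares the batch of each stage. In siblings 12807 genes were called (52.4%), 6388 higher and 6419 lower. Both calls were higher for 4890 genes, 84.9% of the mutant rises and 76.55% of the sibling rises. For falls, 4093 genes were shared, 85.4% of the mutant list and 63.8% of the sibling list. There were 75 genes that rose in mutants and fell in siblings, and 11 that did the reverse. Across the 24424 genes, the log2 fold changes correlated with a Pearson r of 0.822 and a Spearman rho of 0.808, a description, since genes are not independent replicates. The median size of the log2 fold change was 0.53 in mutants and 0.66 in siblings. Siblings at 48 hpf spread more, with a biological coefficient of variation of 0.361, and 1 sibling library at each stage, replicate 2 at 24 hpf and replicate 3 at 48 hpf, had a low mitochondrial share of 0.847% and 0.696%.

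**Figure D4:**
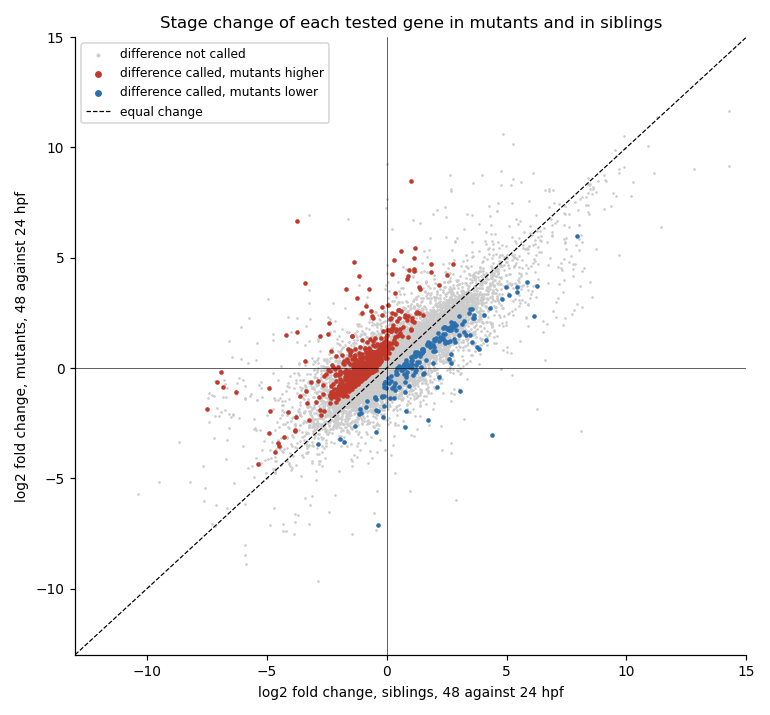
Log2 fold change from 24 to 48 hpf of each of 24424 genes in siblings (horizontal) and in mutants (vertical). Coloured points are the 594 genes whose change was called higher in mutants (red) and the 180 called lower (blue) in the test of the difference, and the dashed line marks equal changes.

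The difference between the stage changes was called in 774 genes, 3.17% of those tested. It was higher in mutants in 594 (2.43%) and lower in 180 (0.737%), and with scaling by library size in 460 and 230. Among the 337 of these genes called in the same direction in both genotypes, the change was smaller in mutants in 287, or 85.2%. With each library left out in turn this share was 75.9% to 91.6%, and it was 90.4% without both sibling libraries of low mitochondrial share. A further 85 genes were called in opposite directions. The numbers of called differences depended on single libraries. Higher calls were 387 and 342 without mutant 24 hpf replicate 3 or 4 and 1053 without sibling 48 hpf replicate 3, and lower calls were 109 and 375 without sibling 48 hpf replicate 2 or 3 and 89 and 88 without mutant 48 hpf replicate 1 or 3.

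In the ER list the difference was called lower in mutants in 10 of 41 genes and higher in 2. The level of hsp90b1 fell in mutants, as given above, and rose in siblings from 176, 137, 221 and 155 CPM to 258, 297 and 333 CPM, a difference of -1.89 ± 0.22 with an edgeR adjusted p of 9.22e-05. For derl3 siblings had 5.41 to 6.44 CPM at 24 hpf and 4.02 to 5.07 CPM at 48 hpf, so mutants were above siblings at both stages, and the difference of the changes was -1.61 ± 0.20. Both ER list genes with a higher difference, atf4a and ddit3, also stand in the amino acid stress list, where 10 of 33 were called higher and none lower. The call of atf4a, at an edgeR adjusted p of 0.04996, was lost in 18 of 22 settings, among them the replicate block, with an adjusted p of 0.0584. The gene ddit3 was named after its values were seen. The call on atf4a was lost in 18 of 22 settings.

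In the lysosome list the difference was called higher in 13 of 35 genes and lower in none. The protease gene ctsba fell in mutants from 238, 191, 242 and 201 CPM to 158, 135 and 137 CPM, and in siblings from 517, 548, 443 and 441 CPM to 105, 102 and 128 CPM. Its difference was 1.52 ± 0.16 with an edgeR adjusted p of 5.64e-05. In the cathepsin gene ctss2.1 the mutant libraries went from 17.5, 33.8, 39.9 and 45.7 CPM to 16.3, 13.2 and 19.2 CPM, and the sibling libraries from 299, 333, 256 and 242 CPM to 4.21, 4.36 and 2.48 CPM. The mutant groups overlap, and the sibling levels lie above those of mutants at 24 hpf and below them at 48 hpf. Of 31 yolk syncytial layer genes the difference was called higher in 13 and lower in 1, and of 35 genes of lipoprotein assembly higher in 10 and lower in 1. These lists overlap. The intestinal and yolk syncytial gene fabp2 fell by 1.54 ± 0.17 in mutants and by 2.95 in siblings on the log2 scale, a difference of 1.41 ± 0.23.

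Of 37 liver genes the difference was higher in 9 and lower in 2. The fibrinogen subunit genes fga, fgb and fgg, named after their values were seen, rose in mutants by 2.25, 2.30 and 2.35 on the log2 scale, with differences of 1.74, 1.52 and 1.47. In ribosome biogenesis the difference was higher in 15 of 54, that is, a smaller fall in mutants. That count was 3 to 32 when single libraries were left out, with 8 without mutant 24 hpf replicate 1 or 3 or sibling 48 hpf replicate 2, 3 without mutant 24 hpf replicate 4, 7 without mutant 48 hpf replicate 1 or 3 and 32 without sibling 48 hpf replicate 3. For members without a called difference, the test does not show that the changes of mutants and siblings were alike.

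**Figure D5:**
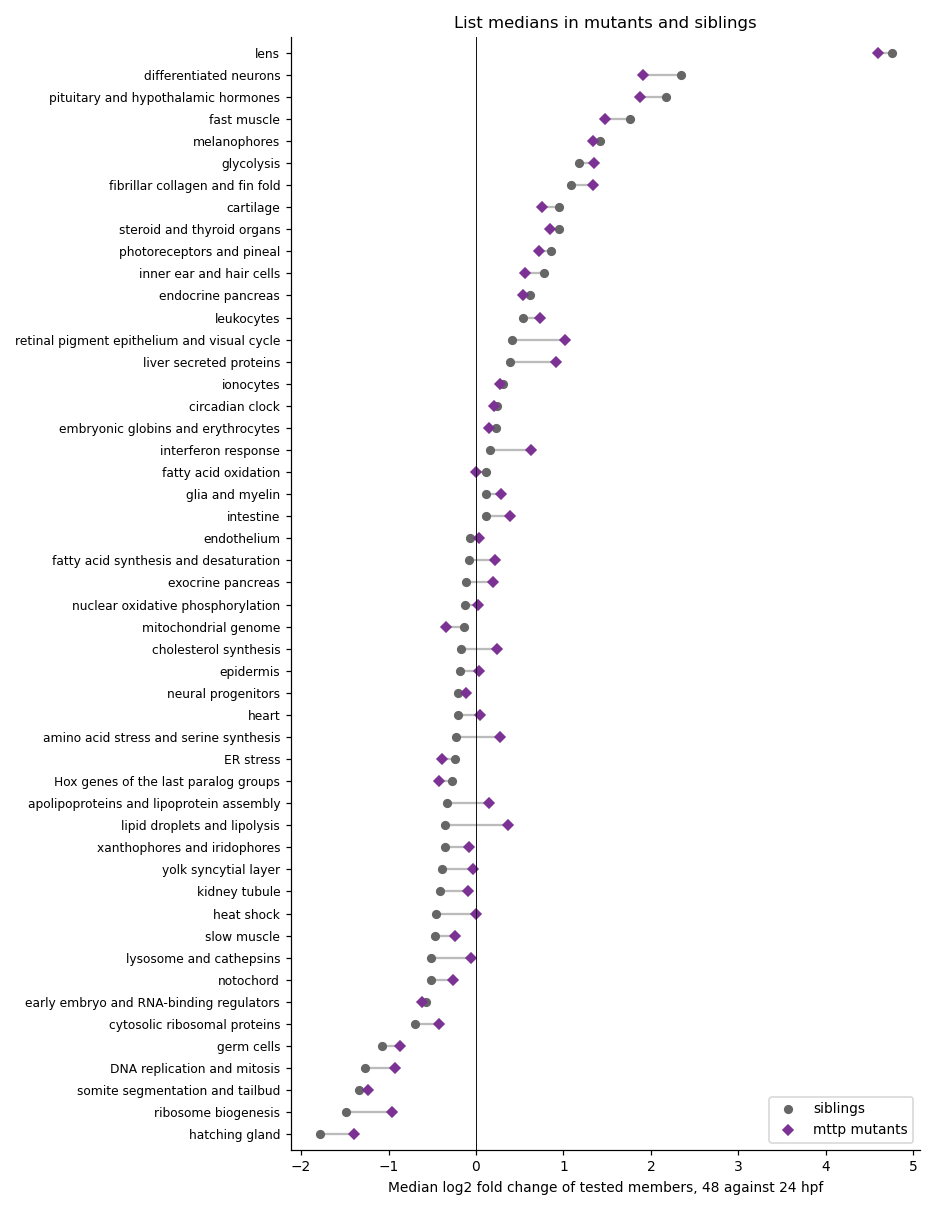
Median log2 fold change from 24 to 48 hpf over the tested members of each of 50 lists, in siblings (circles) and mutants (diamonds). The order of the lists is similar in both. The neuron, fast muscle, replication and ribosome lists lie nearer to 0 in mutants than in siblings. Other lists, such as liver, interferon response, glycolysis and ER stress, lie further from 0 in mutants.

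The list medians are a description of the members tested. In siblings the medians were 2.34 for neurons, 1.76 for fast muscle, -1.27 for replication and mitosis and -1.49 for ribosome biogenesis, against 1.91, 1.48, -0.92 and -0.96 in mutants. For lens they were 4.75 and 4.59. Other lists had medians of greater size in mutants than in siblings. Among these were liver with 0.39 in siblings and 0.92 in mutants, and interferon response with 0.15 and 0.63. Glycolysis had 1.17 and 1.35, and ER stress had -0.24 and -0.39. The lipid droplet list had medians of -0.35 in siblings and 0.37 in mutants.

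Among genes with a gene name and a mean log2 CPM of at least 1, the greatest positive differences were those of slc25a38a, a mitochondrial glycine carrier gene, at 5.39 ± 0.50 and of arf4b, a small GTPase gene of the secretory pathway, at 5.29 ± 0.65. The level of slc25a38a rose in mutants from 1.67, 3.62, 2.02 and 2.81 CPM to 11.1, 7.31 and 5.47 CPM and fell in siblings from 6.86, 10.996, 7.76 and 8.64 CPM to 0.793, 0.845 and 0.321 CPM. The level of arf4b rose in mutants from 4.203, 2.89, 4.27 and 3.56 CPM to 51.2, 56.4 and 26.4 CPM, while no sibling library exceeded 0.547 CPM, and the difference was lost with limma-voom. Other high differences were those of cd83, an immune surface gene, tnip2, slc28a1, psme1 and cbln11, from 3.68 to 4.57, of which that of cd83 was lost with limma-voom.

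On the negative side stood clstn3, a synaptic calsyntenin gene, at -4.07 ± 0.24. In mutants it fell from 152, 94.0, 119 and 93.1 CPM to 57.3, 52.5 and 59.09 CPM, and in siblings it rose from 8.01, 6.38, 9.84 and 7.42 CPM to 73.9, 67.5 and 54.5 CPM. The genotypes thus differ widely at 24 hpf and overlap at 48 hpf. The photoreceptor factor gene crx rose in both, in mutants from 1.09, 0.904, 0.699 and 0.654 CPM to 11.1, 13.1 and 9.39 CPM and in siblings from 0.248 to 0.669 CPM to between 29.9 and 47.3 CPM, with a difference of -2.51 ± 0.36 that was lost with limma-voom. The cone transducin gene gnb3a rose by 2.37 ± 0.59 in mutants and by 6.15 in siblings on the log2 scale, a difference lost with limma-voom and without mutant 24 hpf replicate 2 or 4, sibling 48 hpf replicate 2 or mutant 48 hpf replicate 1 or 3. The remaining negative differences among the 8 greatest were those of FAM135B, phka1b, tmppe, ush1c and mafga, from -2.95 to -2.45. The difference of ush1c was lost with limma-voom, and that of mafga was lost without sibling 24 hpf replicate 3, mutant 24 hpf replicate 1, 3 or 4, sibling 48 hpf replicate 1 or 2, or mutant 48 hpf replicate 2 or 3.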

How the data were processed

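The authors deposited 1 table of raw counts per gene, made from RNA-seq of whole zebrafish embryos. The submitters' processing notes name GRCz11 as the build and, as tools, STAR 2.7.10b, Trim Galore 0.6.10, FastQC 0.12.1 and featureCounts 2.0.6. How featureCounts was set is not given in the sources used here. From the counts, edgeR 4.0.16 (R 4.3.3) with TMM scaling and a filter on low counts (filterByExpr, minimum count 10) kept 24424 of 36109 genes. The quasi-likelihood model was fitted to all 14 libraries in 4 groups, leaving 10 residual degrees of freedom, with Benjamini-Hochberg adjustment over all genes tested. Floors and intervals reflect counting error alone. The members and the gene lists were chosen with earlier results of these data known. Named genes were mttp, the first 2 of each list, up to 2 further called members with the greatest change (mean log2 CPM of at least 1, groups without overlap), the 12 greatest rises and falls under the same limits, and the 8 greatest called differences from siblings each way with that mean level. The sets of greatest rises, falls and differences took only genes with a gene name. Mutant and sibling libraries of the same number deviated together within a stage, with r from 0.298 to 0.408 at 24 hpf and from 0.119 to 0.294 at 48 hpf over replicates 1 to 3. The replicate block gave each number an effect shared by both stages, and a block within each stage was not fitted. Results with the block therefore do not test the pairing within a stage. Of 1648 list names, 1540 matched by symbol and 37 by a RefSeq synonym, 18 were the same gene as another member and 53 were not found. On simulated counts for the mutant comparison over 23908 genes, the test recovered 32.8% of the genes altered 1.5-fold, 64.2% of those altered 2-fold and 89.4% of those altered 4-fold. For the difference from siblings it recovered 7.46%, 41.8% and 83.3%. Only 67, 67 and 66 genes were altered at these folds, all with a mean of at least 1 CPM. In that simulation 132 genes were called for the mutant comparison, against 10552 in the data, so these shares need not hold for the data. DESeq2 1.42.0, limma 3.58.1, other scalings and filters, a replicate block, the mutant libraries alone and leaving out each library were the alternatives. A gene that the naming rule selects is not reported here.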

Additional observations from a re-analysis of the deposited data

Results flagged for a closer look

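Among 215 named genes with values in all 4 mutant libraries of 24 hpf, 8 had a library that stood far from the other 3, and chance gives about 1 in 20 genes. High single values were those of slc1a3b in replicate 4 (6.28 CPM, the others 3.27 to 3.73), myhz2 in replicate 3 (1095 CPM, the others 619 to 684), adcyap1b in replicate 3 (10.6 CPM, the others 8.66 to 8.73), mt-nd3 in replicate 1 (201 CPM, the others 174 to 176) and crygm2d9 in replicate 2 (0.0583 CPM, the others 0). Low single values were those of and2 in replicate 2 (2.86 CPM, the others 7.80 to 8.18), hbae3 in replicate 1 (160 CPM, the others 398 to 405) and apoa1b in replicate 2 (1903 CPM, the others 2154 to 2176). These values fell in replicates 1 to 4 in 2, 3, 2 and 1 genes.

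The stage change differed between mutants and siblings, by the test of the difference in edgeR, in 38 of 217 named genes. Over all genes tested the share was 3.17%. The 8 greatest differences each way were named because they were called, so the 38 do not measure how often named genes differ. All values here are the mutant minus the sibling log2 fold change. Among genes of the tissue lists it was 1.02 for ctslb, 0.91 for insm1a, -0.86 for prdm1a, -0.96 for tfa, 1.41 for fabp2, 0.82 for cdh17, 1.16 for oc90 and 1.88 for hsd3b2. Among stress and lipid genes it was -1.89 for hsp90b1, -1.61 for derl3, -0.92 for herpud1, 0.39 for atf4a, 0.67 for cpt1ab, 0.81 for pparab, 0.89 for hspb1, 4.03 for si:ch211-199o1.2 and 2.1999 for socs3a. For fbl it was 0.69 and for pou5f3 -2.05. In the cathepsin genes ctsba, ctsd and ctsh it was 1.52, 0.90 and 1.55. The 8 greatest positive differences were 5.39 for slc25a38a, 5.29 for arf4b, 5.20 for ctss2.1, 4.57 for cd83, 4.44 for tnip2, 4.43 for slc28a1, 4.34 for psme1 and 3.68 for cbln11. The 8 greatest negative differences were -4.07 for clstn3, -3.78 for gnb3a, -2.95 for FAM135B, -2.85 for phka1b, -2.76 for tmppe, -2.57 for ush1c, -2.51 for crx and -2.45 for mafga. Beside the losses given above, several of these calls were lost in part of the 22 alternative settings. The call was lost in 15 settings for cpt1ab, 11 for fbl, 10 for pparab and 9 each for pou5f3 and socs3a. For hspb1 it was lost in 4 and for tfa in 3.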

How the results depend on the processing

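Among the named genes, no called change and no called difference from siblings turned its direction in the alternatives run, while values near 0 that were not called, such as the change of mttp, could cross 0. Of 186 named genes called in mutants, 169 were called under all 24 alternatives and 17 were lost in some, and of 38 called differences 24 were called under all 22 and 14 were lost in some. Many of these genes were named for a great called change or difference in the same libraries. Their calls were therefore likely to hold, and these numbers do not describe calls in general. Rises and falls in mutants numbered 5941 and 5202 with DESeq2, 5925 and 4826 with limma-voom, and 5245 to 6235 and 3678 to 5490 with each library left out in turn. With at least a 2-fold change they were 3710 and 1268. Differences from siblings moved more. Higher and lower calls were 288 and 80 with at least a 2-fold change, 870 and 504 with DESeq2, 522 and 281 with a filter of at least 1 CPM in 3 libraries, and 838 and 481 without both sibling libraries of low mitochondrial share, an alternative chosen after seeing the data. Leaving out each library in turn gave 342 to 1053 higher and 88 to 375 lower. The share of higher calls among differences was 76.74%, 66.67% with library size scaling, 65.01% with the CPM filter and 63.32% with DESeq2. The cause of these shifts was not tested. Same-numbered mutant libraries of the stages deviated together with r of 0.282, 0.216 and 0.0996, and each 48 hpf library correlated best with its own number, a hint from the data and not the design. Sibling libraries of the stages gave 0.381, -0.0998 and 0.119. With the replicate number as a block, 5745 genes rose and 4863 fell, and differences were 681 and 217. Beside the differences of mttp and atf4a, it changed the call of none of the other called differences of named genes. In the mutant libraries alone 6401 rose and 5765 fell, or 6169 and 5500 with the block. Low depth limits genes such as opn1sw1 and mbpa, which had too few counts for a test.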

Other observations

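Genes were also grouped by the letters before the first digit of their symbol, after their values were seen, which gave 258 families of at least 10 tested members. At least 80% of members rose in 5 families. All 20 tested crygm crystallin genes rose. Of the ionotropic glutamate receptor genes (grin) 10 of 12 rose, of the metabotropic receptor genes (grm) 9 of 11, of the genes with symbols that begin with lgals, galectins and the galectin-binding protein gene lgals3bpb, 8 of 10, and of the LIM homeobox genes (lhx) 8 of 10, while lhx2a and lhx8b fell by 1.11 and 1.99 on the log2 scale. At least 80% fell in 5 others. Of the nuclear pore genes (nup) 19 of 20 fell, of the large ribosomal subunit genes (rpl) 39 of 44, of the mcm genes 10 of 12, of the RNA exosome genes (exosc) 8 of 10 and of the N-terminal acetyltransferase genes (naa) 8 of 10.

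No count was found at 24 hpf in any mutant library for 48 genes that had at least 10 counts in each mutant library at 48 hpf, 25 of them with a gene name. With 3 counts over the 24 hpf group as the floor, the interferon-induced genes ifit14 and ifit15 were at least 186-fold and at least 70.7-fold higher, ttc36 at least 75.3-fold and ca15c at least 64.3-fold. The reverse pattern was found in 7 genes, 3 of them named, lygl2, mespab and ankrd31. These genes were chosen after their values were seen.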
